A study of Homo sapiens with 12 samples.

Results

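HEK293T cells, a human embryonic kidney line in which the Wnt pathway is intact and is switched on by adding Wnt3A, were compared on 3 of the 12 arrays of the series. These were the arrays of MLLT10/AF10-depleted cells and of DOT1L-depleted cells, both after 9 h of Wnt3A conditioned medium, and the array of si-control cells after 9 h of control conditioned medium. They were chosen because they lay on 1 slide, so that cells with and without Wnt3A can be set side by side without a second slide. The si-control cells given Wnt3A were hybridized on another slide and entered none of the differences, and their values are given beside them. All cells had received 15 nM of an siRNA pool for 72 h, a non-targeting pool in the si-control cells. On each of these arrays Cy3-labeled sample RNA was measured against Cy5-labeled universal human reference RNA. The change of a feature is the mean log2 sample/reference ratio of both knockdown arrays minus that of the control medium array. Each condition had 1 array, so differences between conditions could not be tested and are given without p-values. Beside a change stands the error of the Feature Extraction program, combined over the 3 arrays, which leaves out how far separate cultures would differ. Wnt3A and the siRNA differ together between the knockdown arrays and the control medium array, so their parts in a change cannot be told apart. Both knockdown differences also share the control medium array and its chance error. Since bulk RNA was measured, more RNA per cell and more cells with that RNA cannot be told apart either.

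Wnt ligands bind Frizzled and LRP receptors and thereby keep β-catenin from degradation, and β-catenin then joins TCF/LEF factors on DNA and activates their target genes. Several of these targets, such as AXIN2, NKD1, RNF43, and ZNRF3, are themselves inhibitors of the pathway and form negative feedback. DOT1L is the methyltransferase of histone H3 lysine 79, a mark of transcribed genes, and MLLT10/AF10 is a partner of DOT1L in the same complex.

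The core word CTTTGAA, on either strand, with its variants that end in AT (CTTTGAT), in TA (CTTTGTA), or in TT (CTTTGTT), is a sequence that TCF/LEF factors are known to bind. In the RefSeq promoter windows of GRCh38.p14, which span 250 bases before to 50 bases after each start, 13.8% of 35116 windows held at least 1 of these 4 words. The windows of SP5, DKK1, and TCF7 are shown because these 3 Wnt targets had probes that were higher after Wnt3A on both knockdown arrays and their windows held the core (in capitals, read 5′ to 3′).
SP5, chr2:170715087-170715386, plus strand: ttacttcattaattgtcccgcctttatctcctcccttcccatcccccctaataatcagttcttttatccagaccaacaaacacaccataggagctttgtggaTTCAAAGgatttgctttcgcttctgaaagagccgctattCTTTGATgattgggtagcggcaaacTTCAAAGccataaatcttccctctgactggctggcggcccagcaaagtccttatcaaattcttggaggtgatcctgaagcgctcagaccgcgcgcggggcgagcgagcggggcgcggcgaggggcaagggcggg
DKK1, chr10:52314031-52314330, plus strand: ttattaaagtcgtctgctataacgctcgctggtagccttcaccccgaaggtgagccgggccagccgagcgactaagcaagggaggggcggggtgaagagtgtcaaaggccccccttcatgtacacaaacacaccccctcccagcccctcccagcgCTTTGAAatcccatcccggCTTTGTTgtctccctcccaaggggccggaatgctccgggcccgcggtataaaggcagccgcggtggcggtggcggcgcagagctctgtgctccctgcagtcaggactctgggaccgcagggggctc
TCF7, chr5:134123368-134123667, plus strand: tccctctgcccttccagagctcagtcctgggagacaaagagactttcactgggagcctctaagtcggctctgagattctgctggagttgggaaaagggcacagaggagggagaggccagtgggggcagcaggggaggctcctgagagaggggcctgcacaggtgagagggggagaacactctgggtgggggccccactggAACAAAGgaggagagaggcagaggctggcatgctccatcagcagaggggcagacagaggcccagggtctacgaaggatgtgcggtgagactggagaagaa
The SP5 window held 3 such words, which begin at −148, −109, and −84 from the start site. The DKK1 window held 2, at −95 and −76. The TCF7 window held 1, at −50, and belongs to a downstream start of the gene, whereas the window of the upstream start (chr5:134115363-134115662) held none. The windows of ZCCHC12, NKD2, LEF1, APCDD1, BAMBI, and MSX1 held none. The core was also found in the window of a downstream start of TBXT, a Wnt target that changed by 0.07, at −88, and in that of TNFSF4, one of the 10 largest decreases, at −141. AXIN2, CCND1, ZNRF3, and NKD1 had no window in the table. Over all genes the core did not separate the directions. At least 1 window with the core was found for 46 of 292 higher genes (15.8%), 44 of 227 lower genes (19.4%), and 1370 of 10820 genes tested (12.7%). A match in these letters is a description of the window and not a binding site.

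The siRNA targets were examined first. The log2 sample/reference ratio of MLLT10 was 0.72 in control medium, 0.51 in the DOT1L knockdown, and −1.35 in its own knockdown. This is a change of −2.07 in its own knockdown and of −0.20 in the other. A second MLLT10 probe was not measured well enough on the MLLT10/AF10 array to be tested. For DOT1L, 1 probe had ratios of −0.13 in control medium, −0.09 in the MLLT10/AF10 knockdown, and −2.07 in its own knockdown. A second DOT1L probe changed by −1.34 in its own knockdown and by 0.00 in the other. The remaining DOT1L probe did not follow, with 0.21 in its own knockdown and 0.38 in the other. Each target was therefore lower in its own knockdown on at least 1 probe, and on the same probes it changed by −0.20 to 0.04 in the other knockdown.

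Of 43376 features that are not control spots, 28164 had a signal more than 2-fold above the local background in at least 1 channel on all 3 arrays and were compared. Between 71.1% and 74.1% of all features had a sample signal well above background, the median program error of the ratios was 0.22 on every array, and outlier marks removed 91 to 103 features each. Probes with 5 or more spots, 240 in all, had a median SD between spots of 0.04 for the change. Of the 10 genes listed as expressed in HEK293 cells, 9 were on the arrays by symbol, and all 9 were detected on each of the 3. Of 8 colorectal genes, 5 to 7 were detected, and the summed sample signal of those compared was 816 to 904 intensity units. Of 7 blood cell genes, 5 to 7 were detected, and those compared summed to 3411 to 4446. The genes listed for HEK293 cells summed to 124014 to 150354. Fibroblast genes summed to 1517 in control medium and to 1759 and 1670 in the MLLT10/AF10 and DOT1L knockdowns, and all 6 fibroblast genes compared were above 0, with a median change of 0.25. Among these marker lists only the fibroblast gene LUM passed 1.5-fold (0.90, program error 0.94), and it did not with normexp background correction and loess. On the si-control Wnt3A array the median of the fibroblast genes was 0.09 and none (0) was higher. The part of other cells in the changes was not tested.

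In the mean of both knockdowns with Wnt3A, 833 features (2.96%) exceeded control medium by over 1.5-fold, and 717 (2.55%) lay below it by over 1.5-fold. A feature is 1 spot and repeat spots of a probe count separately, so these were 774 and 683 probes. With normexp background correction and loess in place of the deposited ratios, the counts were 370 and 116, so that the higher share of the called features went from 53.7% to 76.1%. Of the 833 higher features, 445 passed the threshold in each knockdown on its own, and of the 717 lower ones 387 did (1.58% and 1.37% of the features tested). The MLLT10/AF10 array alone gave 1140 higher (4.05%) and 1047 lower features (3.72%), and the DOT1L array alone 865 (3.07%) and 781 (2.77%). The knockdowns differed from each other, without the control medium array, by more than 1.5-fold at 539 (1.91%) and 454 features (1.61%). This last comparison holds no Wnt3A difference, and its SD over features was 0.26. The SDs of the MLLT10/AF10 and DOT1L arrays minus control medium were 0.35 and 0.32. The mean change, which averages 2 knockdown arrays and so is not a like measure, had an SD of 0.31. At 30 of the 28164 features the knockdowns passed the threshold in opposite directions. Dim spots made up much of both lists. The sample signal failed to be well above background on all 3 arrays for 208 of the higher features and for 45.6% of the lower ones, compared with 5.13% of all features tested. For 37 of the higher features the control medium array alone was dim, and for 97 of the lower ones both knockdown arrays were dim, so that these changes are bounds. With only features well above background on all 3 arrays, 625 were higher (2.34%) and 390 lower (1.46%).

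**Figure D1:**
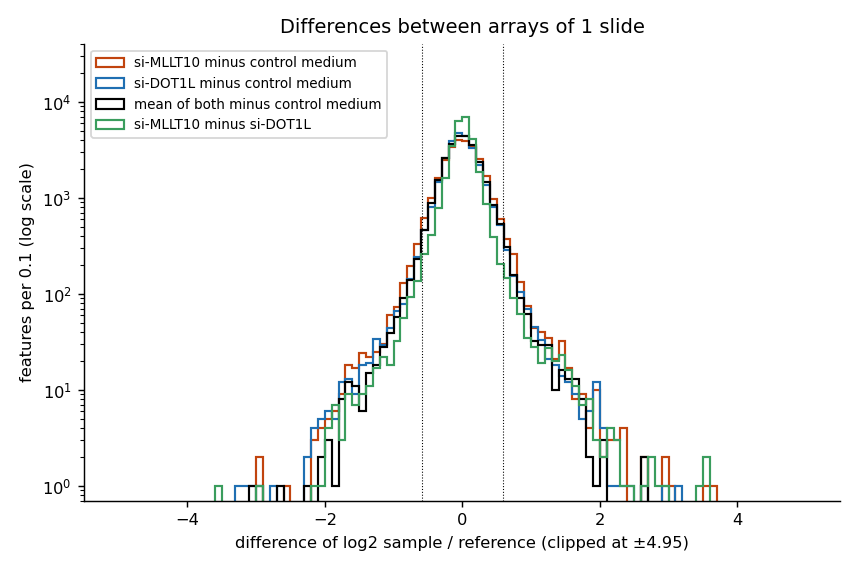
Histograms of 4 differences of log2 sample/reference ratios over 28164 features of 1 slide, with the number of features per 0.1 on a log scale. Dotted lines mark 1.5-fold. The difference of the MLLT10/AF10 and DOT1L arrays (green, SD 0.26) is narrower than that of either knockdown against control medium (SD 0.35 and 0.32).

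Named genes come from 1 probe each, the brightest one tested, unless probes are given separately. Of 13451 genes, 386 (2.87%) were higher and 283 (2.1%) lower, and the median change was 0.01.

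Most Wnt target genes stayed within 1.5-fold of control medium, and those that did not were higher. The list holds 24 textbook targets, and 19 were tested. Of these, 5 were more than 1.5-fold higher and none (0) was lower, the median change was 0.32, and all 19 were above 0, as were 51.8% of all genes. With the sample channel used alone, 16 of the 19 were above 0. The 5 genes were CCND1, DKK1, AXIN2, TCF7, and ZCCHC12, and 4 of them passed in each knockdown on its own. The median was 0.33 in the MLLT10/AF10 knockdown and 0.26 in the DOT1L knockdown. For si-control cells with Wnt3A, on the other slide, it was 0.41 against the same control medium array, with 6 genes more than 1.5-fold higher, as were 3.75% of all genes there. Of the remaining targets of the list, DKK4, LGR5, WIF1, and FGF20 were not well above background on any of the 3 arrays, and CDX1 did not exceed 2-fold its background on all of them.

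AXIN2, a scaffold of the β-catenin destruction complex, had log2 sample/reference ratios of −0.62 in control medium, 0.19 in the MLLT10/AF10 knockdown, and 0.24 in the DOT1L knockdown. Both knockdowns lay above control medium, by 0.81 and 0.86, and 0.05 apart. The mean change of 0.84 (program error 0.26) is 1.79-fold, and the si-control Wnt3A array stood at 0.46, a change of 1.08. A second AXIN2 probe was too dim to be tested, and its ratios gave 0.54 (program error 0.40).

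CCND1, which encodes cyclin D1 and drives entry into S phase, had the largest change of the list. Its ratios on the brightest probe were −2.76 in control medium, −1.36 in the MLLT10/AF10 knockdown, and −0.82 in the DOT1L knockdown. The change was 1.67, or 3.18-fold (program error 0.36, SD over 10 spots 0.05). Its other 2 probes changed by 1.22 and 1.61. On all 3 probes the DOT1L knockdown was above the MLLT10/AF10 knockdown, by 0.51 to 0.83, and the si-control Wnt3A array gave 1.24, 1.12, and 0.86.

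DKK1, a secreted antagonist of the LRP receptors, had ratios of −4.34 in control medium and of −3.07 and −3.00 in the knockdowns. The change of 1.30 (program error 0.52) is 2.46-fold. TCF7, which encodes the TCF family member TCF1, stood at −2.11 in control medium and at −1.38 and −1.19 in the knockdowns. Its change of 0.82 had a program error of 0.33 and an SD over 10 spots of 0.06. In both genes the knockdowns lay close together and above control medium, and the si-control Wnt3A array gave similar changes of 1.19 and 0.82.

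ZCCHC12, a zinc finger gene that the study used as a Wnt target in HEK293T cells, stood at 5.15 in control medium and at 5.92 and 5.63 in the knockdowns. Its change of 0.62 was smaller than its program error of 0.67, and only the MLLT10/AF10 knockdown passed 1.5-fold (0.77, against 0.47). With the sample channel alone the change of ZCCHC12 was 1.52, and with normexp and loess 1.01. SP5, a transcription factor gene that represses targets of the pathway, was split by probe. Changes of 1.00 (program error 0.75) and 1.06 (0.82) were found on 2 probes, for which the reference RNA was far brighter than the sample. The brightest SP5 probe, which stands for the gene in the list, gave 0.07 (program error 0.26). With normexp and loess the change of 1.06 was 0.58 and no longer passed 1.5-fold.

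Other targets of the list changed less. Among the membrane ubiquitin ligases that remove Frizzled receptors, RNF43 changed by 0.13, and ZNRF3 by 0.51 and −0.27 on its 2 probes. NKD1 and NKD2, which bind Dishevelled, changed by 0.17 and 0.33, and NOTUM, which inactivates Wnt ligands, by 0.13. For NKD1 the si-control Wnt3A array gave 0.66. APCDD1, a membrane inhibitor of Wnt, changed by 0.44, the receptor gene TNFRSF19 by 0.46, and the pseudoreceptor gene BAMBI by 0.16. The homeobox genes MSX1 and MSX2 changed by 0.32 and 0.20, where a second MSX1 probe gave 0.86. LEF1 changed by 0.15 and TBXT by 0.07. None of these genes passed 1.5-fold on its brightest probe.

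MYC, often used as the model target of β-catenin in colorectal cells, stayed near control medium on the probe tested. Its log2 ratios were −0.64 in control medium, −0.68 in the MLLT10/AF10 knockdown, and −0.49 in the DOT1L knockdown, over 10 spots. The change was 0.05 (program error 0.26, SD between spots 0.02), and the si-control Wnt3A array gave −0.25. A second MYC probe was too dim to be tested, and its ratios gave −0.74 (program error 0.52).

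**Figure D2:**
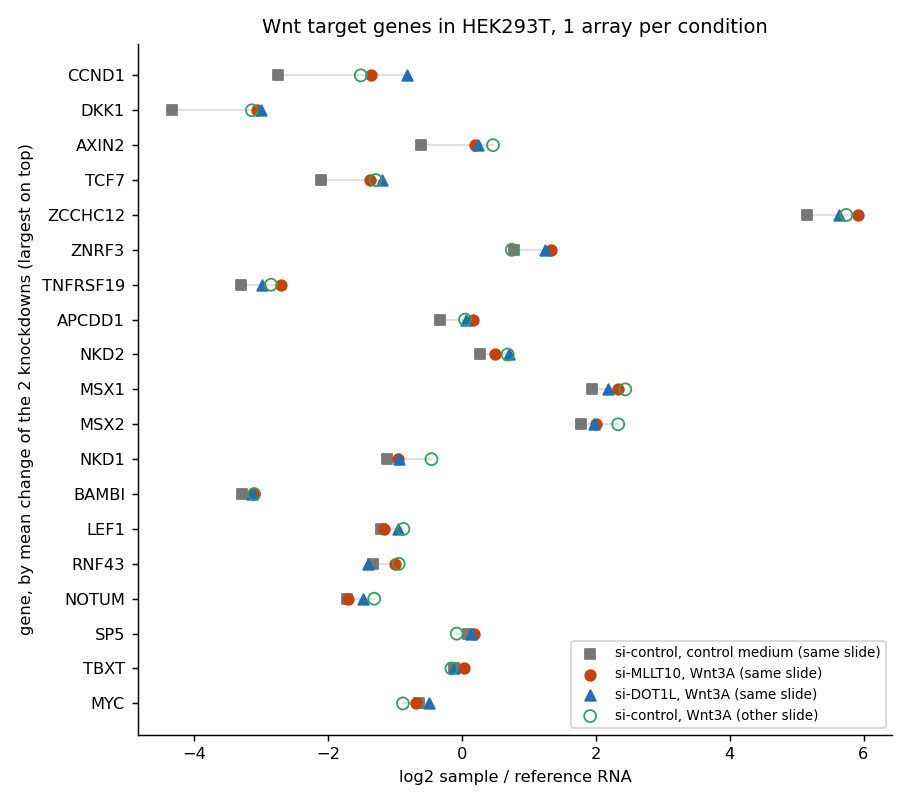
Log2 sample/reference ratios of the 19 Wnt targets tested, 1 probe per gene, on the 3 arrays of the slide (filled symbols) and on the si-control Wnt3A array of another slide (open circles). CCND1, DKK1, AXIN2, and TCF7 are higher in both knockdowns than in control medium (grey squares), and MYC lies within 0.2 of it. Each symbol is 1 array, and SP5 is shown by its brightest probe.

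**Figure D3:**
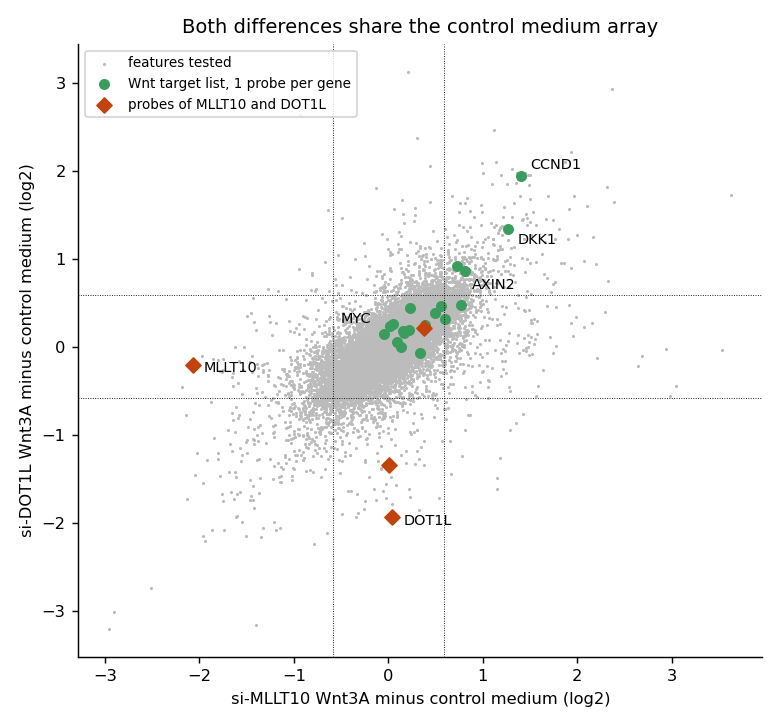
Change of each of 28164 features against control medium in the MLLT10/AF10 knockdown (horizontal) and the DOT1L knockdown (vertical), in log2. Both axes share the control medium array, so the slope of the cloud is not a measure of agreement. Dotted lines mark 1.5-fold. The Wnt targets (green) reach 1.40 (horizontal) and 1.94 (vertical) for CCND1. The probes of MLLT10 and DOT1L (diamonds) lie low on their own axis, apart from 1 DOT1L probe.

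Upstream of β-catenin, 33 of 50 genes for Wnt ligands, receptors, and their modulators were tested, with a median change of 0.09. Higher were 5 of them, WNT11, KREMEN2, WNT6, FZD10, and WNT3A, and none (0) was lower. WNT11, a ligand of mostly β-catenin-independent signaling, changed by 1.06 and 0.97 on its 2 probes. KREMEN2, a co-receptor of DKK1, changed by 0.80, and the receptor gene FZD10 by 0.62. WNT6 changed by 0.63 and 0.76 on its 2 probes. WNT3A itself changed by 0.62 (program error 0.59). Inside the cell, none (0) of 23 tested genes of signal transduction passed 1.5-fold, and the largest changes were those of the corepressor gene TLE1 (−0.32) and of AXIN1 (0.30). Among 25 tested genes of the DOT1L, super elongation, and PAF complexes, the 2 lower ones were the siRNA targets themselves, each lower in its own knockdown only. The list's next change was that of CCNT2, a cyclin of the elongation factor P-TEFb, with −0.53 and −0.81 on 2 probes.

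The largest changes among named genes lay mostly outside the Wnt list. Of the 13451 genes tested, 214 were more than 1.5-fold higher and 113 lower in each knockdown on a probe well above background on all 3 arrays. Any probe of a gene could count here, not only the brightest. Of all features tested, 1.58% were higher and 1.37% lower in each knockdown. The 10 largest increases were those of EGR1, CCND1, ETV4, THBD, HSPA1A, G0S2, ETV5, PCDH20, IFI44L, and DKK1, from 1.79 down to 1.30. Genes were ranked by their most changed probe that met these conditions, which need not be the brightest. EGR1, an immediate early transcription factor gene, had ratios of −4.63 in control medium, −3.51 in the MLLT10/AF10 knockdown, and −2.17 in the DOT1L knockdown (change 1.79, program error 0.54). ETV4 and ETV5 encode ETS factors whose transcription is known to follow ERK signaling. ETV4 changed by 1.66 and 1.57 on 2 probes, and ETV5 by 1.49 on the probe that was well above background. With normexp and loess the values were 0.99 and 0.96 for ETV4 and 0.74 for ETV5. On the probes given so far, EGR1, ETV4, and ETV5 were above control medium in both knockdowns and on the si-control Wnt3A array. That array gave 2.74 for EGR1, 1.75 for ETV4, and 1.78 for ETV5. Another ETV5 probe changed by −0.13 in the MLLT10/AF10 knockdown, where it was not well above background, and by 1.80 in the DOT1L knockdown.

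THBD, the thrombin receptor thrombomodulin, changed by 1.59, and G0S2, an inhibitor of lipid breakdown, by 1.55. Their values on the si-control Wnt3A array, against the same control medium array, were 0.70 and 0.65. PCDH20, a protocadherin gene, changed by 1.48 (program error 0.94) and by 0.02 on that array. The change of PCDH20 no longer passed with the sample channel alone (0.44) or with normexp and loess (0.56). Slide and siRNA both differ between that array and the knockdown arrays and cannot be told apart. HSPA1A, which encodes the inducible HSP70 chaperone, changed by 1.33 and 1.56 on 2 probes and by 0.42 (program error 0.82) on another probe that was also well above background. HSPA1B is a near-identical copy, so the probes may measure either gene. IFI44L, an interferon-stimulated gene, changed by 1.44, and by 0.62 with normexp and loess.

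The 10 largest decreases, ranked by the most decreased probe in the same way, were those of PFKFB3, PLXNA4, APOLD1, PCDHB8, TDRD10, CCNG2, CDKN1B, ANKRD10, TNFSF4, and RHOT1, from −1.36 to −0.93. CDKN1B, which encodes the CDK inhibitor p27, had ratios of −0.48 in control medium and of −1.47 and −1.48 in the knockdowns. It was 1.99-fold lower (program error 0.27 and SD over 8 spots 0.03, both in log2), and changed by −0.56 on its other probe. CCNG2, a cyclin gene associated with cell cycle arrest, changed by −1.04 and −0.64 on 2 probes. PLXNA4, a semaphorin co-receptor, changed by −1.27, and APOLD1, an endothelial early response gene, by −1.25. These genes were below control medium in both knockdowns, and on the si-control Wnt3A array CDKN1B changed by −0.75, PLXNA4 by −1.40, and APOLD1 by −0.70. For PFKFB3, an activator of glycolysis, only 1 of 4 probes was lower (−1.36), and the others gave −0.04, 0.12, and 0.11. For ANKRD10, 1 of 2 probes was lower (−0.97, against −0.02). The brightest probes of PFKFB3 (0.11) and ANKRD10 (−0.02) did not pass 1.5-fold. With normexp and loess PLXNA4 (−0.38), PCDHB8 (−0.45), and TNFSF4 (−0.26) no longer passed 1.5-fold, and with the sample channel alone TDRD10 did not (−0.40).

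Gene groups that are not part of the Wnt pathway had medians like that of the Wnt targets. Of 28 tested immediate early genes, 5 were higher, EGR1, EGR2, EGR3, FOS, and DUSP6, and none (0) was lower, with a median of 0.31. EGR3 was not well above background on every array, and with normexp and loess only EGR1 and FOS of this list passed (2 of 28). Of 17 tested genes of heat shock, the unfolded protein response, and amino acid limitation, 4 were higher, none (0) was lower, all 17 were above 0, and the median was 0.40. The 4 were HSPA1A, DNAJB1 (0.80), HSPA8 (0.72 to 0.75 on 4 probes), and the cystine transporter gene SLC7A11 (0.64 and 0.16 on 2 probes). DNAJB1 and HSPA8 encode a cochaperone and the constitutive chaperone HSC70. On the si-control Wnt3A array the medians of the immediate early and stress lists were 0.32 and 0.28. There 11 immediate early and 2 stress genes were more than 1.5-fold higher, as were 3.75% of all genes, and none (0) was lower.

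The other lists had medians between −0.20 and 0.13. Genes of DNA replication and mitosis had a median of −0.04, cholesterol synthesis 0.06, and BMP and TGF-β genes −0.02, and none (0) of the 27, 21, and 19 genes tested passed 1.5-fold. Ribosome biogenesis had a median of 0.13, and 1 of 17 genes passed, POLR1A (0.66). Among 20 interferon-stimulated genes, OAS1 and IFI44L were higher and RIGI was lower (−0.64), with a median of 0.03. OAS1 was not well above background on every array. Among 17 CDK inhibitors and p53 targets, CDKN1B and CDKN2C (−0.65) were lower, and BBC3 was higher on the brightest (0.73) of 3 probes. The other BBC3 probes gave −0.13 and 0.22 and did not pass 1.5-fold. The HOX genes and their cofactors had the lowest median, −0.20 over 34 genes, and among those past 1.5-fold were HOXA13 (−0.76), which was lower, and HOXB7 (0.63) and HOXA3 (0.59, but −0.42 on a second probe), which were higher. Of 13 common reference genes, TFRC, the transferrin receptor, was lower (−0.81, SD over 7 spots 0.03), and the median was 0.08. With normexp and loess POLR1A (0.41), RIGI (−0.43), HOXB7 (0.34), and HOXA3 (0.56) no longer passed 1.5-fold.

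**Figure D4:**
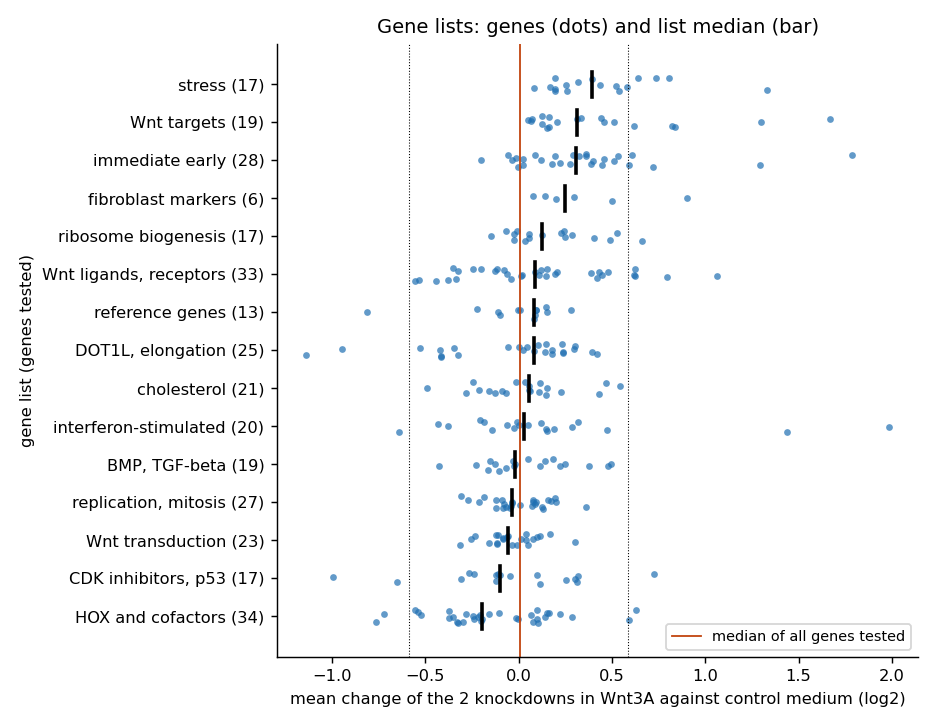
Mean change of both knockdowns with Wnt3A against control medium for the genes of 15 lists (dots, 1 probe per gene) with each list's median (black bar), in log2. The red line is the median of all 13451 genes (0.01), and dotted lines mark 1.5-fold. Stress, Wnt target, and immediate early genes have the highest medians (0.40, 0.32, and 0.31), followed by 6 fibroblast markers (0.25), and HOX and cofactor genes the lowest (−0.20).

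The knockdowns also differed from each other. Values of the MLLT10/AF10 minus the DOT1L array do not use control medium. EGR1 was lower in the MLLT10/AF10 knockdown by a difference of −1.34, ETV5 by −0.97, ETV4 by −0.71 and −0.75 on its 2 probes, and EGR2 by −0.76. DUSP6, an ERK phosphatase gene induced by ERK, changed by −0.07 in the MLLT10/AF10 knockdown and by 1.28 in the DOT1L knockdown (difference −1.35). Its mean change of 0.61 was smaller than its program error of 0.68. These genes were picked after their values were seen. Over the whole immediate early list, 20 of 28 genes were lower in the MLLT10/AF10 than in the DOT1L knockdown, as were 45.3% of all genes, and 5 were lower by more than 1.5-fold (1.32% of all genes) and none (0) higher. JUN and KLF2 were higher in the MLLT10/AF10 knockdown, by 0.40 and 0.57. The list had median changes against control medium of 0.22 and 0.42, with 4 and 7 of 28 genes higher, and JUN (0.59) was among the 4 in the MLLT10/AF10 knockdown and not among the 7. The largest differences among probes well above background, picked after their values were seen, were those of SCG3, CHGB, and UNC13A, and they went the other way. SCG3, a granin of secretory vesicles, had ratios of −2.62 in control medium, 0.36 in the MLLT10/AF10 knockdown, and −3.18 in the DOT1L knockdown. A second SCG3 probe changed by 1.74 and −0.07 in the MLLT10/AF10 and DOT1L knockdowns. CHGB, which encodes chromogranin B, had −0.62, 2.32, and −0.64, and UNC13A, a gene of synaptic vesicle release, −0.42, 2.23, and −0.64. Among the arrays of the slide, these genes were higher in the MLLT10/AF10 knockdown alone, by changes of 2.98, 2.94, and 2.65. On another slide, against the same control medium array, UNC13A changed by 2.05 in the p300 knockdown with Wnt3A and by −1.13 in the BRG1 knockdown, and CHGB by 0.73 and 1.39. In MLLT10/AF10-depleted Ls174T cells SCG3 changed by −1.38 and CHGB by −1.11. The mean of both knockdowns therefore stood at 1.21, 1.46, and 1.21 although the DOT1L knockdown was not above control medium. AMPH, an endocytic adaptor gene, was lower in the MLLT10/AF10 knockdown alone, with −2.07, and −0.18 in the DOT1L knockdown.

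The same features were read on arrays that share no sample with the slide. In Ls174T cells, a colorectal cancer line with a constitutively active Wnt pathway, β-catenin depletion was compared on a dye-exchanged pair of arrays. The labels name si-control RNA as the second channel of this pair, whereas the methods name the universal reference RNA for all arrays, and the labels were followed. Over the same 16944 features the middle 50% of the pair's log2 ratios lay between −0.27 and 0.25 (SD 0.53), compared with −0.32 to 0.94 (SD 1.19) for Ls174T si-control cells over reference RNA. Of the 833 higher features, 334 were measured there, and 18 of them (5.39%) were more than 2-fold lower after β-catenin depletion and 26 (7.78%) more than 2-fold higher. Repeat spots of a probe count separately in these shares, so the features are not all different probes. Among all 17132 features measured in both, 222 (1.3%) were lower and 640 (3.74%) higher. Of 189 lower features, 6 (3.17%) were lower and 35 (18.5%) higher. Median changes were 0.10 for the higher, 0.07 for the lower, and −0.02 for all features. Both lists held larger shares beyond 2-fold in both directions than all features did. The higher list had 5.39% below and 7.78% above 2-fold, against 1.3% and 3.74% of all features. The lower list had 3.17% below and 18.5% above. Of the features higher in each knockdown on its own, 187 were measured, and 15 (8.02%) were lower and 15 (8.02%) higher. Of those lower in each knockdown, 109 were measured, and 4 (3.67%) were lower and 15 (13.8%) higher. The 18 features belong in part to named genes, AXIN2 (−1.97), TCF7 (−1.25), SP5 (−3.15 and −2.55 on the 2 probes higher in HEK293T cells), ASCL2 (−2.81), ENC1 (−2.25), NAV3 (−1.57), DUSP2 (−1.16), MAT1A (−1.08), and B3GAT1 (−1.06). The TCF7 probe has 10 spots and can hold several of the 18 features, whereas the other probes named have 1 spot each. For the 2 SP5 probes, not every channel of the pair was well above background. NAV3 was not well above background on every HEK293T array of the slide. ASCL2, a stem cell factor of the intestinal crypt, changed by 0.62 and 1.25 in the HEK293T knockdowns, and ENC1 by 0.52 and 0.95. CCND1, in contrast, changed by −0.09 after β-catenin depletion, and MYC, which stayed near control medium in HEK293T cells, by −1.15. Of the Wnt target list, 11 genes were measured on the pair, 9 were below 0, and 5 were more than 2-fold lower. SP5 entered this count with its brightest HEK293T probe, which changed by 0.02. Replication and mitosis genes were also lower there, all 24 measured genes being below 0 with a median of −0.55, against −0.04 in HEK293T cells.

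**Figure D5:**
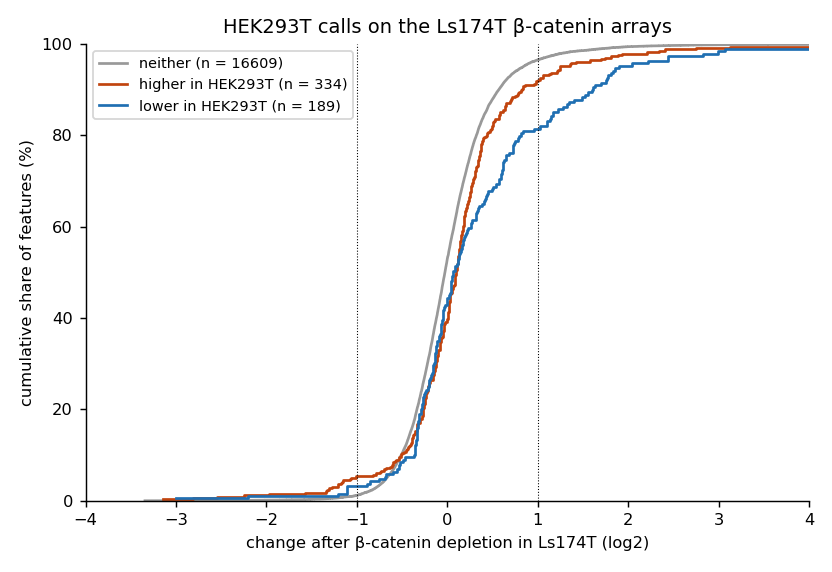
Cumulative share of features against the log2 change after β-catenin depletion in Ls174T cells, for features that were higher (n = 334), lower (n = 189), or neither (all others measured) in HEK293T cells. Dotted lines mark 2-fold. Repeat spots of a probe count as separate features. The higher features have larger shares beyond both lines than the others (5.39% below and 7.78% above), and the lower features have the largest share above 2-fold (18.5%).

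MLLT10/AF10 depletion in Ls174T cells was measured against a si-control array on a single slide. Of 753 higher features measured there, 48 (6.37%) were more than 1.5-fold lower and 43 (5.71%) higher, compared with 2.34% and 2.07% of 26560 features. Of 660 lower features, 57 (8.64%) were lower and 53 (8.03%) higher. The medians were 0.00 and −0.02, so neither list moved in one direction. In these arrays AXIN2 changed by 0.18, TCF7 by −0.10, CCND1 by 0.11, and MLLT10 itself by −1.42.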

How the data were processed

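RNA of HEK293T and Ls174T cells had been hybridized to Agilent whole-genome arrays with 2 colors, 1 array per condition apart from the dye-exchanged β-catenin pair. The authors read the arrays with the Feature Extraction program (10.5.1.1 per the file headers and 8.5.1.1 per the labels). The deposited intensities are the median and the processed signal per channel, where processing by the program removed the background and balanced the dyes. Deposited log10 ratios compare processed Cy5 with Cy3, with the program's error. Ratios that the program sets to 0 for lack of signal made up 7.38% to 8.21% of the features.

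From these files the ratios were turned to sample over reference and converted to log2. The deposited table of values held the same ratios for these 3 arrays (largest difference 0). Control spots and outlier-marked features were left out. The median signal had to exceed 2-fold the local background in either channel on all 3 arrays, and in Ls174T comparisons on those arrays too. Thresholds were 1.5-fold in HEK293T cells and for MLLT10/AF10 depletion, and 2-fold for β-catenin depletion. Spots of a probe were averaged, and the program error was not divided by the number of spots. A gene was represented by the probe with the highest mean sample signal. Symbols were given to 27612 of 29084 features with a RefSeq accession (94.9%). Named genes are the siRNA targets, the genes the study followed, the 10 largest changes each way among probes well above background and past the threshold in both knockdowns, the Wnt target list, and up to 4 genes per other list. Members and lists were chosen with earlier results of these data known. Python 3.11.15 (numpy 2.4.6, pandas 2.3.3) and R 4.3.3 (limma 3.58.1) were used, and the steps were tested on simulated data. The alternatives were another background correction, the sample channel alone, the deposited table, other filters, centring, a 2-fold threshold, and each knockdown alone.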

Additional observations from a re-analysis of the deposited data

How the results depend on the processing

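With 1 array per condition, counts measure these arrays and not the spread between cultures. Program errors cover only the measurement on the arrays and leave out that spread as well. Dim signal limited the lists, since 208 of 833 higher and 327 of 717 lower features were not well above background on all 3 arrays. The change of AXIN2 was 0.82 with normexp and loess, 0.98 with the sample channel alone, and 0.85 with centring, against 0.84. These shifts were smaller than its program error. The deposited table and the other filters could not move it, since they left the ratios of its probe as they were. The deposited table, the kept outlier marks, and centring moved no count by over 1.5 times.

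With normexp and loess, 370 features were higher, 116 lower, and 248 past the threshold the same way in both knockdowns, and the median of the Wnt target list was 0.26. The main values were 833, 717, 832, and 0.32. With the sample channel alone, 1278 features were higher and the list median was 0.43. With both channels over 2-fold background the counts were 455, 236, and 376. With no filter on signal they were 2807, 3237, and 3385, and the list median was 0.16. With the sample channel well above background, 390 were lower and 541 passed in both knockdowns. At 2-fold the counts were 158, 148, and 167. Each knockdown alone gave 865 to 1140 higher and 781 to 1047 lower features, list medians of 0.26 to 0.33, and AXIN2 changes of 0.81 to 0.86. The causes of these shifts were not tested, apart from the threshold and filters, which set how many features enter. Of 62 called probes of the named genes, 16 lost their call with normexp and loess and 8 with the sample channel alone, and none (0) changed direction under either. No paired analysis was possible because each condition has 1 array.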
